A study of Mus musculus with 25 samples.

Results

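Choroid plexus from mice given a control IgG was compared with choroid plexus from untreated mice, using the 5 IgG columns and the 4 untreated columns of the raw count table, 9 of the 14 choroid plexus libraries and of the 25 samples of the series. The series examined blockade of PD-1, which restrains T cells, in 5XFAD mice, a transgenic strain that overexpresses mutant human amyloid precursor protein and presenilin in neurons and develops amyloid plaques. The IgG mice are the antibody control of that experiment, so the comparison addresses what separated mice given the control antibody from untreated mice. All 9 mice carried the 5XFAD transgenes, and no wild-type choroid plexus was used here. The IgG group held 5 libraries, 2 with M and 3 with F in their titles, and the untreated group held 4 libraries, 3 with M and 1 with F. The clone, dose, schedule and route of the IgG and the age of the mice are not given in the labels, and a title number that ranged from 6 to 14 is not explained there. The tissue was dissected whole from the ventricles of the brain after perfusion with PBS, and mRNA was counted by 3′ end sequencing, in which each transcript is counted near its 3′ end.

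The choroid plexus is a sheet of epithelial cells around a core of fenestrated capillaries, fibroblasts and macrophages. It secretes cerebrospinal fluid and forms the barrier between blood and that fluid. Its epithelium is known for very high expression of transthyretin and for its response to systemic signals, interferon-gamma among them. An isotype control antibody is meant to carry the constant region of a therapeutic antibody, which Fc receptors and complement can bind, without its target. Glucocorticoids, which are released with handling and injection, induce genes such as Fkbp5 and Tsc22d3 in many tissues.

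The libraries held 931461 to 1840072 counts with IgG and 1040785 to 1257208 counts in the untreated group. The epithelial identity of the tissue was plain, since all 36 members of the choroid plexus epithelium list were tested and Ttr alone took 10.3% to 16.6% of the counts in these 9 libraries. Neutrophil, T and NK cell, B lineage and dendritic cell lists had 0 tested members. Ddx3y, a Y-linked RNA helicase, had 96 to 126 counts in the M libraries of the 2 groups and 0 to 4 in the F libraries. Untreated 1 stood apart from the other 8 libraries on the first principal component, which held 17.2% of the variance, and values of Ttr, Dct and Col5a1, in which it was the highest untreated library, are given with and without it. The second component, with 15.6%, followed the letter, and neither component separated IgG from untreated. Across libraries, Pearson's r of log2 CPM, counts scaled to a common library total, over genes had a median of 0.951 within IgG, 0.951 within untreated and 0.952 between the groups, as a description of pairs that share libraries. The letter entered the fit as a covariate because it is unequal between the groups. Estimates given for F libraries set 3 IgG libraries against the 1 untreated library with that letter, untreated 3, whose spread is assumed to be that of the other libraries. Nothing beyond the design text, which counts 5 and 4 mice, says how the libraries were prepared, so p-values measure the spread between these libraries.

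**Figure D1:**
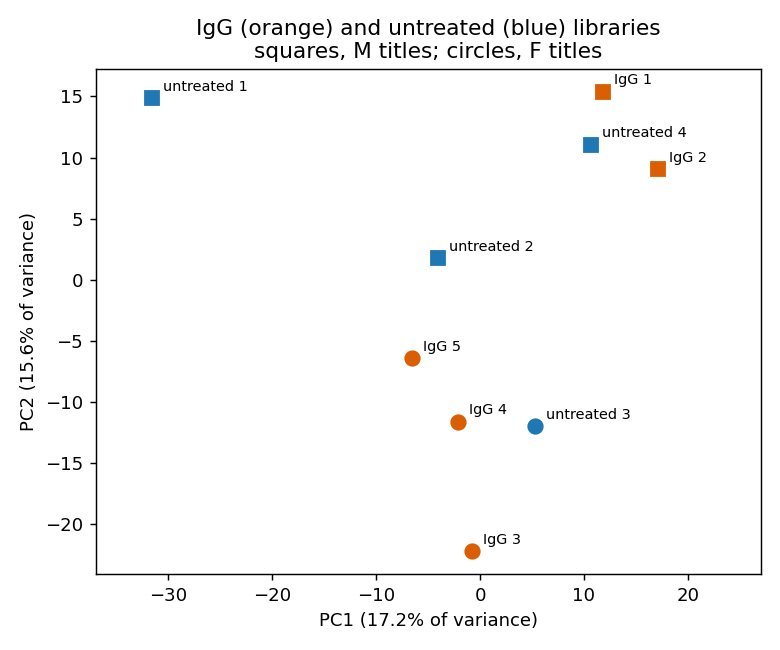
First and second principal components of log2 CPM in the 5 IgG (orange) and 4 untreated (blue) libraries, with squares for M and circles for F titles. The groups intermix, untreated 1 lies at -31.6 on the first component, and the F libraries lie at the low end of the second.

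IgG and untreated choroid plexus differed at 1 gene of the 9513 tested. With edgeR's quasi-likelihood test and Benjamini-Hochberg adjustment, 1 gene was higher with IgG at an adjusted p under 0.05, which is 0.0105% of the genes tested, and 0 genes were lower, which is 0%. At an unadjusted p under 0.05 the test gave 460 genes, or 4.84%, of which 274 (2.88%) were higher with IgG and 186 (1.96%) were lower. In 80 genes (0.841%) every IgG library lay above every untreated library, in 70 (0.736%) every one lay below, and 86 of these 150 genes also had an unadjusted p under 0.05. The count of calls depended on the fit: without a low-count filter it was 13 higher and 14 lower, Npm1, Fkbp5, Herpud1, Hspa1b, Dct, Cpne2 and Adamts1 among them, with DESeq2 it was 2 higher, and in the same quasi-likelihood fit without robust estimation, tried after seeing the data, it was 0 with 475 genes at an unadjusted p under 0.05. It was also 0 when IgG 1, IgG 3, IgG 4, untreated 2, untreated 3 or untreated 4 was left out in turn.

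**Figure D2:**
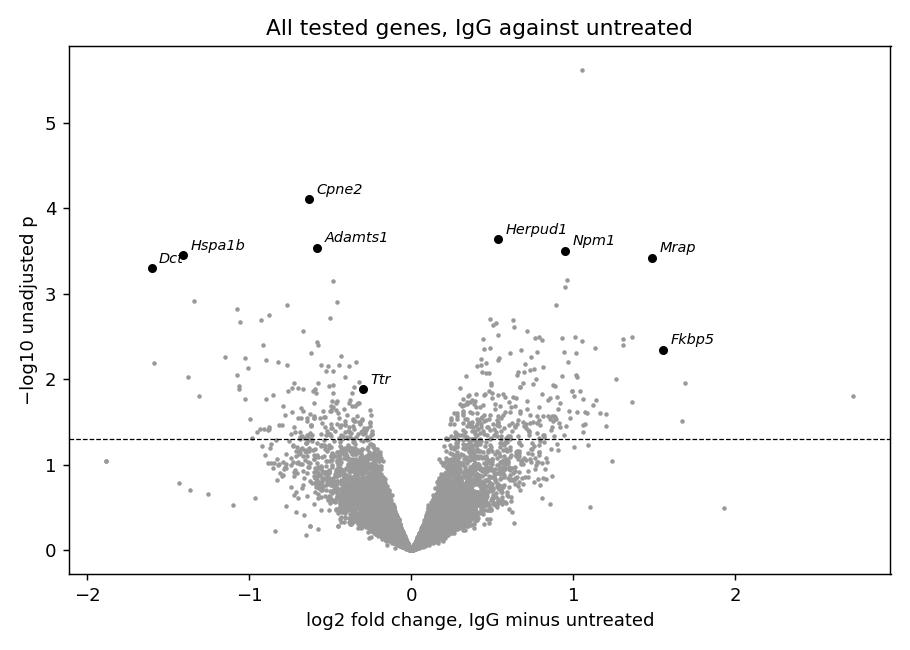
Log2 fold change of IgG minus untreated (x axis) against −log10 of the unadjusted p (y axis) for the 9513 tested genes, with the dashed line at the 0.05 threshold. Marked in black are 9 named genes, none of them called after adjustment.

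Among complement genes, Serping1 encodes the C1 inhibitor, which blocks the first proteases of the classical and lectin pathways. Its levels were 119.3, 105.3, 85.5, 73.3 and 91.9 CPM with IgG and 55.2, 62.2, 67.9 and 49.7 CPM untreated. Every IgG library was above every untreated one, with a log2 difference of 0.65 ± 0.247 and an adjusted p of 0.998. The genes of the first complement component pointed the other way without passing the test: C1qa had a log2 difference of -0.43 ± 0.497, C1qb -0.46 ± 0.312 and C1qc -0.55 ± 0.330. Over the whole complement list of 11 tested genes, 4 estimates were positive and 7 negative, 2 were higher and 0 lower at an unadjusted p under 0.05, Serping1 among them, where 2.88% of all tested genes were higher, and the median log2 difference was -0.054, against -0.0019 over all tested genes. That median changed sign with the library left out, from -0.22 without IgG 1 to 0.026 without untreated 1.

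**Figure D3:**
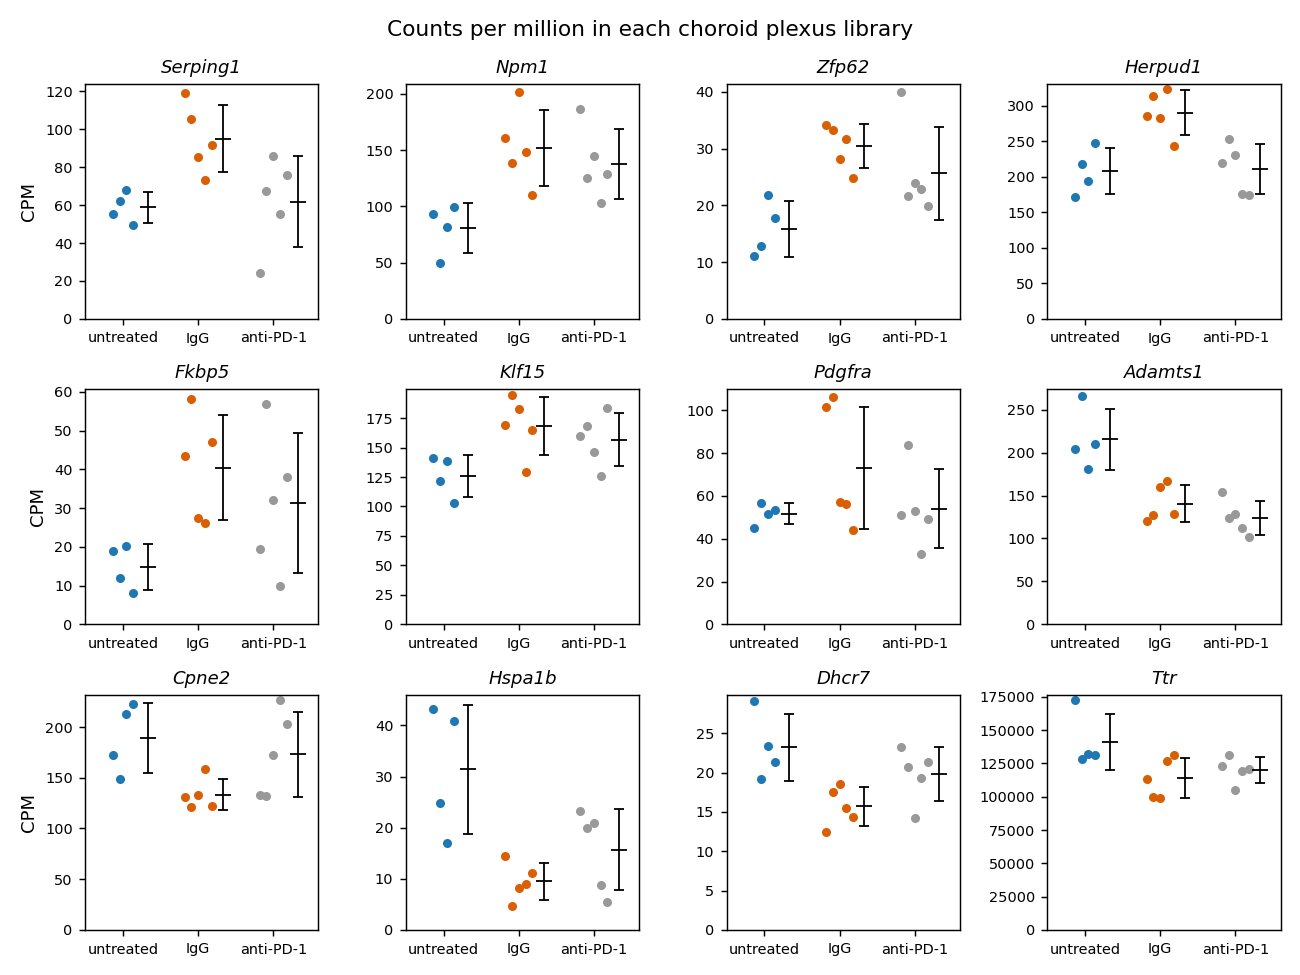
CPM in each untreated (blue), IgG (orange) and anti-PD-1 (grey) choroid plexus library for 12 genes, with the mean and SD of each group in black and each y axis starting at 0. Serping1, Npm1, Zfp62, Fkbp5, Adamts1, Hspa1b and Dhcr7 show no overlap between IgG and untreated libraries, whereas the other 5 genes do overlap. Most of the 12 genes were named for a low p in these libraries, which favours such separation. Over all tested genes, every IgG library lay above in 0.841% and below in 0.736%.

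Herpud1 and Npm1 were among the genes of lowest p with a positive estimate. Herpud1 is a membrane protein of the endoplasmic reticulum that helps degrade misfolded proteins and is induced by stress of that compartment. Herpud1 measured 285.2, 314.1, 283.2, 323.4 and 242.5 CPM with IgG and 171.5, 218.6, 193.9 and 247.7 CPM untreated. IgG 5 and untreated 4 overlapped, the other IgG libraries lay above all untreated ones, and the log2 difference was 0.54 ± 0.130 (adjusted p = 0.466). Npm1, nucleophosmin, is an abundant nucleolar chaperone of ribosome assembly. Npm1 measured 160.8, 138.6, 201.4, 148.2 and 110.2 CPM with IgG and 93.3, 49.5, 81.6 and 99.4 CPM untreated. These groups did not overlap, and the log2 difference was 0.95 ± 0.216 (adjusted p = 0.466). Npm1 passed in DESeq2, with an adjusted p of 0.0305, and over the 26 alternatives its adjusted p ranged from 1.41e-06 to 1.00. Bop1, a factor of large-subunit assembly, had a log2 difference of 0.57 ± 0.221 (adjusted p = 0.998). The 24 tested nucleolar genes as a list had 2 members at an unadjusted p under 0.05, both higher, and a median of 0.021. Of 30 tested ribosomal protein genes 1, Rpl5, was higher at that level with a log2 difference of 0.43 ± 0.147. Over all tested genes the share higher at that level was 2.88%.

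Hspa1b, an inducible HSP70 chaperone, was among the genes of lowest p with a negative estimate. Hspa1b measured 14.5, 4.62, 8.18, 8.96 and 11.1 CPM with IgG and 43.1, 24.7, 17.0 and 40.8 CPM untreated. Every IgG library was below every untreated one, and the log2 difference was -1.41 ± 0.348 (adjusted p = 0.466). Its near-identical neighbour Hspa1a averaged 24.5 CPM with IgG and 34.9 CPM untreated, with a log2 difference of -0.37 ± 0.349, and how reads were divided between the copies is not known here. The 34 tested genes of heat shock and the unfolded protein response had 1 member higher and 1 lower at an unadjusted p under 0.05, and their median was -0.011. Over all tested genes 2.88% were higher and 1.96% lower at that level.

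The sequences just upstream of Herpud1, Hspa1b and Hspa1a are shown because these stress genes had opposite signs. They are the 250 bases before the annotated start, from RefSeq on GRCm38.p6, a later build than the mm9 of the deposited counts. Capitals mark the ER stress response element II (ATTGG, any base, then CCACG) in Herpud1 and GAANNTTC, a core of the heat shock element, in the HSP70 genes, each searched on both strands. Herpud1 lies at chr8:94386179-94386428 on the + strand, Hspa1b at chr17:34959239-34959488 and Hspa1a at chr17:34972157-34972406, both on the - strand.
Herpud1: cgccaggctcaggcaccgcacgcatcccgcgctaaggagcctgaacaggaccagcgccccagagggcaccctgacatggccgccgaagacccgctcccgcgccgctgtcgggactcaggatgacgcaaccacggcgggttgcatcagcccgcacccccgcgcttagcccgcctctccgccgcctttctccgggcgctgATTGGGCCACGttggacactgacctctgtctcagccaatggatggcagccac
Hspa1b: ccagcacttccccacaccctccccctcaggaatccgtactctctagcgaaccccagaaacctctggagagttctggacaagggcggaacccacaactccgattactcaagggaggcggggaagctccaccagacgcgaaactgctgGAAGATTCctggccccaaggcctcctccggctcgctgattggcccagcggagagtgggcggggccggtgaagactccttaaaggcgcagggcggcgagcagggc
Hspa1a: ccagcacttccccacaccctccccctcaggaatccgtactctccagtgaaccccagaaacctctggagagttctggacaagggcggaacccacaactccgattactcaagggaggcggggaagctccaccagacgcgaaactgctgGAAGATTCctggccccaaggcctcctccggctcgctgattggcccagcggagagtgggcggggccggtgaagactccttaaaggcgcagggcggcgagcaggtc
The first motif has 1 match in Herpud1, starting 52 bases before the start, and is found in 10 of 32851 windows of this length, or 0.0304%. The second has 1 match in each HSP70 gene, starting 104 bases before the start, and is found in 6.69% of windows. The Hspa1b and Hspa1a windows are identical at 247 of 250 bases. They lie before the annotated start, so this identity does not show whether 3′ end reads of the copies can be told apart. A match describes the letters and was not measured as binding.

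Glucocorticoid-responsive genes had mostly positive estimates. Of 26 tested members, 22 were higher and 4 lower by estimate, 4 were higher and 0 lower at an unadjusted p under 0.05, none was called after adjustment, and the median log2 difference was 0.14, against 2.88% of all tested genes higher at that level and a median of -0.0019. Fkbp5, a co-chaperone that dampens the glucocorticoid receptor, measured 43.6, 58.2, 27.5, 26.1 and 47.1 CPM with IgG and 19.0, 12.0, 20.2 and 7.99 CPM untreated. Its groups did not overlap, and the log2 difference was 1.55 ± 0.458 (edgeR adjusted p = 0.901). Klf15, a transcription factor of amino acid and lipid metabolism, measured 169.1, 195.0, 182.9, 129.5 and 165.0 CPM with IgG and 141.4, 121.2, 138.2 and 103.0 CPM untreated. IgG 4 alone lay inside the untreated range, and the log2 difference was 0.44 ± 0.140. Tsc22d3, which encodes the anti-inflammatory protein GILZ, had a log2 difference of 0.58 ± 0.241, and Angptl4, an inhibitor of lipoprotein lipase, one of 0.95 ± 0.423 with IgG 5 at 53.7 CPM against 12.6 to 22.8 CPM in the other IgG libraries and an estimate of 0.52 without it. The list's median was 0.30 among M libraries and -0.020 among F libraries, and Fkbp5 itself had 1.99 and 0.76, a difference between letters that was not tested and that for F rests on untreated 3 alone. Without untreated 3 the list's median was 0.21.

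Clock genes gave no common direction. Of 20 tested members 11 had positive and 9 negative estimates. Arntl and Cry1, a core activator and a core repressor of the clock, were lower at an unadjusted p under 0.05, where 1.96% of all tested genes were lower. The log2 differences of Arntl and Cry1 were -0.82 ± 0.361 and -0.62 ± 0.280. Per1, a clock repressor, had -0.17 ± 0.416, and Dbp, an output transcription factor, 0.49 ± 0.495, each with overlapping libraries.

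Adamts1, a secreted protease that cleaves proteoglycans, was among the genes of lowest p with a negative estimate. It measured 120.3, 127.5, 159.8, 167.0 and 127.9 CPM with IgG and 204.6, 265.6, 181.0 and 210.4 CPM untreated. No IgG library reached the untreated range, and the log2 difference was -0.58 ± 0.142 (adjusted p = 0.466). Cpne2, a calcium-dependent membrane-binding protein, measured 130.7, 121.0, 133.1, 158.8 and 122.4 CPM with IgG and 172.5, 148.4, 213.3 and 222.8 CPM untreated. IgG 4 and untreated 2 overlapped, and the log2 difference was -0.63 ± 0.139 (adjusted p = 0.376), the lowest p among genes with a negative estimate. Dct, dopachrome tautomerase of melanin synthesis, ranged from 6.22 to 21.99 CPM with IgG and from 10.4 to 53.1 CPM untreated, with a log2 difference of -1.60 ± 0.392 (adjusted p = 0.530), and -1.20 without untreated 1. The 6 tested melanocyte and pigment genes had 2 positive and 4 negative estimates. Of these Dct alone was at an unadjusted p under 0.05. The list's median was -0.13, or -0.43 among M and 0.085 among F libraries. Mitf, its tested member of highest mean CPM, had -0.020 ± 0.134. The melanocyte genes Tyr, Tyrp1, Pmel and Mlana were too low to test, with group means of 0.437 to 2.33 CPM. The part of pigment cells in the Dct result was not tested.

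The remaining genes of lowest p had adjusted p-values from 0.466 to 0.885. On the higher side were Mrap, the accessory protein of melanocortin receptors (1.49 ± 0.372), Cwf19l2 (1.48 ± 0.375), Zfp62 (0.96 ± 0.257), Slc35f1 (0.95 ± 0.258), Slc16a4, a monocarboxylate transporter (0.89 ± 0.251), Pim2, a survival kinase (0.63 ± 0.187), Sfrp5, a secreted Wnt antagonist (0.53 ± 0.158), Ctnnd1, the p120 catenin of adherens junctions (0.51 ± 0.153), and Sypl (0.49 ± 0.145), all as log2 differences. On the lower side were Mmab, an enzyme of vitamin B12 metabolism (-1.34 ± 0.379), Gdpd5 (-1.07 ± 0.309), Kirrel (-0.93 ± 0.276), Mapk10, the kinase JNK3 (-0.88 ± 0.258), Plekhm2 (-0.77 ± 0.219), Zzz3 (-0.50 ± 0.149), Phf23 (-0.48 ± 0.129) and Plec, the cytoskeletal linker plectin (-0.46 ± 0.129). Libraries did not overlap in Cwf19l2, Zfp62, Sfrp5, Pim2, Sypl, Zzz3, Phf23 and Mapk10. All were named for a low p in the same libraries, so the lack of overlap is no separate support. Among all tested genes, 0.841% lay above and 0.736% below without overlap.

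Epithelial genes had small estimates of both signs, and none was called after adjustment. Ttr, which carries thyroxine and retinol-binding protein in cerebrospinal fluid, took 11.6% ± 1.21 (SD, n = 5) of the counts with IgG and 13.9% ± 1.8 (SD, n = 4) without treatment. The exact two-sided permutation test gave p = 0.0238, adjusted to 0.190 over 8 library measures. Without untreated 1, which held 16.6%, the exact p was 0.125. The fitted log2 difference of Ttr was -0.30 ± 0.113 (edgeR adjusted p = 0.998), and -0.19 without untreated 1. Of the 36 epithelial genes 21 had positive and 15 negative estimates, and the median was 0.032. At an unadjusted p under 0.05, where 2.88% of all tested genes were higher and 1.96% lower, 3 epithelial genes were higher and 2 lower. Those higher were Cldn1, a claudin of tight junctions (0.45 ± 0.169), Rbm47, an RNA-binding protein (0.27 ± 0.113), and Slc12a2, the cotransporter NKCC1 (0.21 ± 0.104), and those lower were Ttr and the water channel Aqp1 (-0.26 ± 0.114). Otx2, the homeobox gene of choroid plexus identity, measured 1112 to 1318 CPM with IgG and 1008 to 1101 CPM untreated, without overlap, and its log2 difference was 0.17 ± 0.0953. Enpp2, autotaxin, had a log2 difference of 0.047 with a 95% interval from -0.16 to 0.25. Ion and water transport genes split 15 to 18 among 33 tested, with Abcc1, an efflux transporter, at 0.36 ± 0.146. Ciliary genes split 8 to 12 among 20 tested. Enkur (0.99 ± 0.382) and Dnaic1 (0.79 ± 0.343) were higher at an unadjusted p under 0.05, where 2.88% of all tested genes were higher.

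Fibroblast and endothelial genes had mostly positive estimates, and pericyte and smooth muscle genes did not. Of 16 tested fibroblast genes 15 had positive estimates, 4 were higher and 0 lower at an unadjusted p under 0.05, where 2.88% of all tested genes were higher, and the median log2 difference was 0.27, or 0.17 without IgG 1. Pdgfra, a growth factor receptor of fibroblasts, measured 101.6, 106.3, 57.2, 56.2 and 44.3 CPM with IgG and 45.1, 56.6, 51.7 and 53.3 CPM untreated. The M libraries IgG 1 and IgG 2 stood high and the other 3 lay near the untreated level. Its log2 difference was 0.64 ± 0.193 in all (adjusted p = 0.887), 1.00 among M and 0.014 among F libraries. Ogn, a matrix proteoglycan (0.99 ± 0.378), Gsn, gelsolin (0.32 ± 0.130), and Col5a1, a fibrillar collagen (1.07 ± 0.448), were the others. Col5a1 had an estimate of 1.39 without untreated 1, and Gsn one of -0.0054 among F libraries. Of 22 endothelial genes 16 had positive estimates, with a median of 0.24, and Ptprb, the endothelial phosphatase VE-PTP, was higher without overlap (0.64 ± 0.262). The endothelial median was 0.061 without IgG 1, 0.12 without IgG 5, 0.15 without untreated 4 and -0.043 among F libraries. The 14 pericyte and smooth muscle genes split 8 to 6, with a median of 0.0021 that was 0.35 among M and -0.44 among F libraries. Vascular and stromal genes together held 0.241% ± 0.0436 (SD, n = 5) of counts with IgG and 0.200% ± 0.0255 (SD, n = 4) untreated (exact permutation p = 0.151, adjusted p = 0.292). In whole tissue, a difference in the number of cells of a type and a difference in RNA per cell cannot be told apart.

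**Figure D4:**
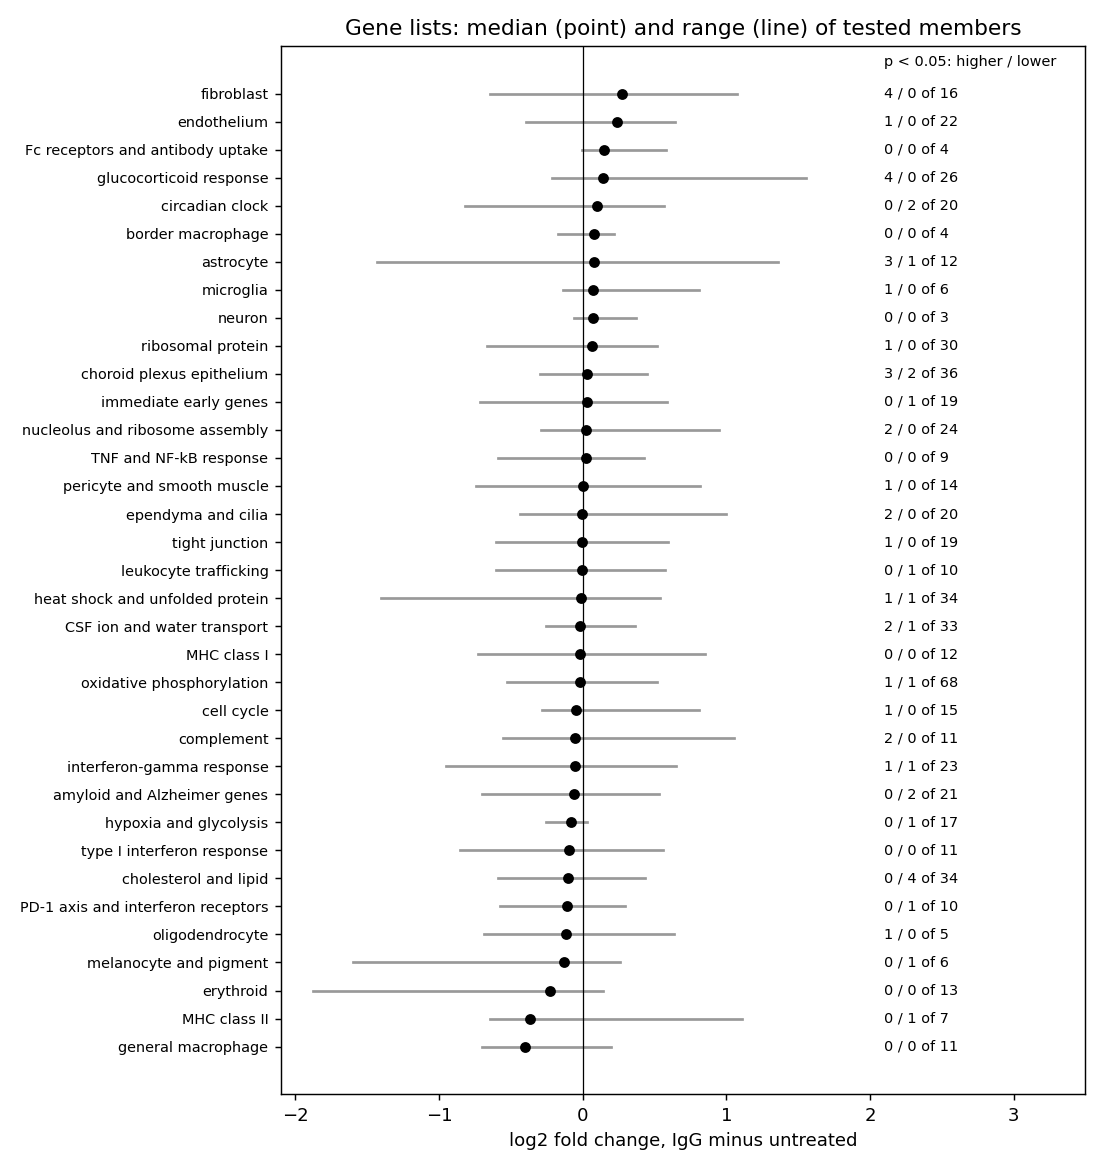
Median (point) and range (line) of the log2 difference, IgG minus untreated, over the tested members of 35 gene lists, with the number higher and lower at an unadjusted p under 0.05 at the right. Medians run from -0.40 for the general macrophage list to 0.27 for the fibroblast list.

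Immune lists gave few low p-values, where 2.88% of all tested genes were higher and 1.96% lower at an unadjusted p under 0.05. Fc receptor genes were scarcely detected: 4 of 15 members of the list were tested, none at an unadjusted p under 0.05, and Fcer1g, the signalling chain shared by Fc receptors, averaged 3.70 CPM with IgG and 5.36 CPM untreated. Fcgrt, the neonatal Fc receptor that recycles IgG, measured 81.9, 42.5, 67.6, 74.9 and 67.0 CPM with IgG and 65.2, 57.4, 65.5 and 53.3 CPM untreated, and its log2 difference of 0.055 had a 95% interval from -0.33 to 0.44. Of 11 general macrophage genes 10 had negative estimates, 0 of them at an unadjusted p under 0.05, with a median of -0.40. That median was -0.66 without IgG 1 and -0.25 among M libraries. Csf1r, the receptor of macrophage growth factors, had -0.40 ± 0.283. C1qa, given above with complement, is also a member of the macrophage list, so those results share that gene. MHC class II genes split 2 to 5, with a median of -0.37 that was -0.58 without IgG 1, -0.23 without IgG 2, -0.16 without untreated 1, -0.11 among M and -0.016 among F libraries. Estimates of the class II list ran up to 1.11, and its mean log2 CPM was 4.69 to 5.73 with IgG and 4.88 to 5.59 untreated. H2-Aa, its member of highest mean CPM, had 0.21 ± 0.426, whereas H2-Ab1 was lower at an unadjusted p under 0.05 (-0.64 ± 0.274). Of 23 interferon-gamma response genes 7 had positive and 16 negative estimates, Serping1 being higher and Gbp2, an interferon-induced GTPase, lower (-0.95 ± 0.447) at that level. Igtp, another such GTPase, had -0.37 ± 0.258 and Ifngr1, the interferon-gamma receptor chain, 0.30 ± 0.224, which became -0.22 without IgG 2 and 0.094 without IgG 1, respectively. Neither direction held a member at an unadjusted p under 0.05 among 11 type I interferon genes or 12 MHC class I genes. Cx3cl1, the chemokine fractalkine, was lower at that level (-0.52 ± 0.186), and Olfml3, a matrix protein listed as a microglial gene, was higher (0.81 ± 0.257).

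Metabolic lists had medians close to 0. Cholesterol and lipid genes had 11 positive and 23 negative estimates of 34, 0 higher and 4 lower at an unadjusted p under 0.05, where 1.96% of all tested genes were lower, and a median of -0.10. That median was -0.052 without IgG 2 or untreated 3 and -0.056 without untreated 1. Dhcr7, the last enzyme of cholesterol synthesis, measured 12.4, 17.6, 18.6, 15.5 and 14.4 CPM with IgG and 29.1, 19.1, 23.4 and 21.3 CPM untreated. Its groups did not overlap, and its log2 difference was -0.53 ± 0.253. Insig1, which retains the sterol sensor complex in the endoplasmic reticulum (-0.50 ± 0.211), and Abcg1, a sterol exporter (-0.29 ± 0.133), were also lower at that level. Of 17 hypoxia and glycolysis genes 15 had negative estimates and 1, the hexokinase Hk1, was lower at that level (-0.25 ± 0.116). The 68 oxidative phosphorylation genes split 33 to 35, with 1 higher and 1 lower at an unadjusted p under 0.05. Ndufc2 was the higher (0.52 ± 0.205) and Ndufc1 the lower (-0.53 ± 0.230). For Ndufc2, IgG 1 stood at 214.7 CPM against 93.0 to 110.8 in the other IgG libraries, and the estimate was 0.14 without it. Other lists held few members at an unadjusted p under 0.05, where 2.88% of all tested genes were higher and 1.96% lower. Ide, an amyloid-degrading protease, was lower (-0.35 ± 0.162), as was Ttr, among 21 amyloid and Alzheimer genes. Ccna2, cyclin A2, was higher (0.81 ± 0.315), 1 of 15 cell cycle genes. Btg2, an antiproliferative gene, was lower (-0.68 ± 0.282), 1 of 19 immediate early genes. Tpm2, a muscle tropomyosin, was higher (0.82 ± 0.390), 1 of 14 pericyte and smooth muscle genes. Ptpn11, the phosphatase SHP2 that acts below PD-1, was lower (-0.30 ± 0.142), 1 of 10 genes of the PD-1 axis and interferon receptors. None of these was called after adjustment. The astrocyte list had 7 positive and 5 negative estimates of 12, with a median of 0.076. At an unadjusted p under 0.05, where 2.88% of all tested genes were higher and 1.96% lower, 4 members stood out by that level alone. Gja1 (1.26 ± 0.461), Slc1a3 (1.36 ± 0.541) and Glul (0.33 ± 0.134) were higher and S100b lower (-1.38 ± 0.4997). Slc1a3 measured 33.2 CPM in IgG 1 against 4.07 to 9.24 CPM in the other IgG libraries, and its estimate was 0.12 among F libraries. Gja1 averaged 3.39 CPM untreated and S100b 4.42 CPM with IgG, both low levels.

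Erythroid genes had 1 positive and 12 negative estimates of 13, 0 at an unadjusted p under 0.05, and a median of -0.22. In 4 of them, Hba-a1, Hba-a2, Hbb-b2 and Hbb-bt, every IgG library lay below every untreated one, as in 0.736% of all tested genes. Hba-a1, an alpha-globin gene, measured 5.19, 2.77, 3.72, 4.07 and 3.32 CPM with IgG and 10.03, 5.58, 6.46 and 10.7 CPM untreated, with a log2 difference of -1.25 ± 0.967. Hbb-b2, a beta-globin gene, measured 1.04, 4.62, 2.23, 3.26 and 3.88 CPM with IgG and 10.03, 11.96, 10.5 and 7.99 CPM untreated, with -1.88 ± 1.02. Both are levels of a few counts. Hbb-bt repeated the values of Hbb-b2 in all 9 libraries and Hba-a2 nearly those of Hba-a1, so the 4 genes are not separate measurements. All 4 still enter the list's counts, median and mean as separate members. Without the low-count filter, Hbb-b2 and Hbb-bt were among the genes called after adjustment. The mean log2 CPM of the list was 4.56 to 4.88 with IgG, 5.11 to 5.22 untreated and 3.97 to 6.09 in the anti-PD-1 libraries, so that IgG and untreated did not overlap while the anti-PD-1 libraries spanned both. The list's summed share of counts, most of it from Car2, a carbonic anhydrase that the epithelium also expresses, was 0.274% ± 0.0342 (SD, n = 5) with IgG and 0.273% ± 0.0144 (SD, n = 4) untreated (exact permutation p = 0.960). The median ranged from -0.45 without IgG 1 to -0.12 without IgG 5.

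The precision of the comparison sets what a single call means. The median SE of the log2 difference was 0.213, and the 95% interval lay within a 1.5-fold change of 0 for 4609 genes (48.4%) and within a 2-fold change, 1 on the log2 scale, for 8024 (84.3%). Among the 1919 genes of at least 100 CPM, 93.3% had an interval within a 1.5-fold change, against 37.1% of the 7594 genes below that level, so that for most genes of low counts the data do not limit the difference to this size. The variation within groups was alike, with a median SD of log2 CPM of 0.257 in IgG and 0.263 in untreated libraries. Apart from the Y-linked Ddx3y, Crhbp, a binding protein of corticotropin-releasing hormone, varied most within groups among genes of at least 20 CPM, from 0.924 to 190.3 CPM with IgG and from 0 to 42.1 CPM untreated, where 0 counts in untreated 4 allow up to 2.66 CPM, and its log2 difference had a 95% interval from -4.32 to 2.64.

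**Figure D5:**
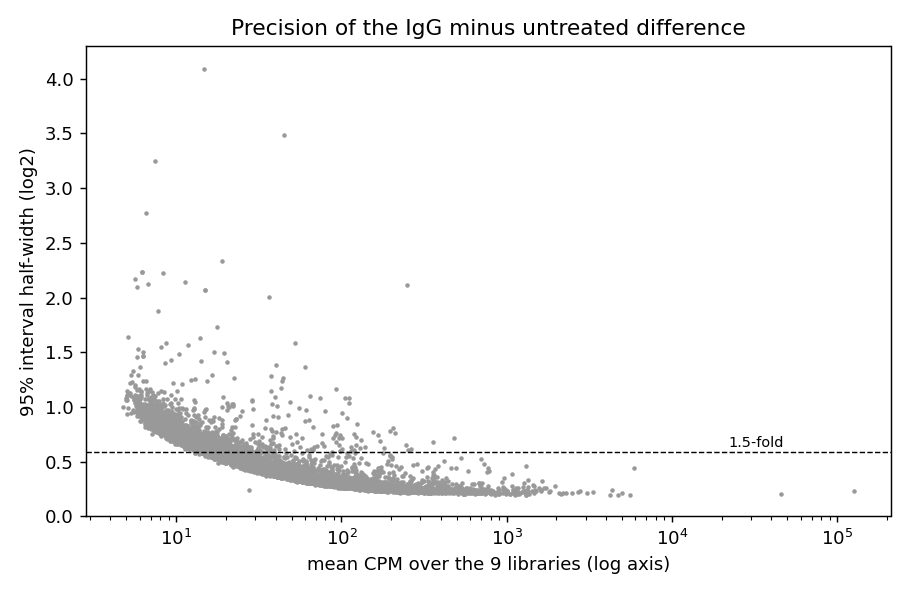
Half-width of the 95% interval of the log2 difference, IgG minus untreated (y axis), against mean CPM over the 9 libraries (log x axis) for each tested gene, with the dashed line at a 1.5-fold change. Intervals narrow with abundance, and most genes of at least 100 CPM lie under the line.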

How the data were processed

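Choroid plexus libraries were made from whole tissue of 5XFAD mice by 3′ end mRNA sequencing, per the labels' protocols. The deposited table holds raw read counts per gene symbol for 14 libraries, 5 anti-PD-1, 5 IgG and 4 untreated. The submitters' processing notes name Bowtie2, HOMER and the mm9 build, with no version or setting. Libraries were grouped by their titles. From the counts, edgeR 4.0.16 (R 4.3.3) was run on all 14 libraries, which share 1 estimate of spread, with TMM scaling, filterByExpr (9513 of 19762 genes kept), the title letter as covariate and a robust quasi-likelihood fit. Genes were called at a Benjamini-Hochberg adjusted p under 0.05. CPM use TMM-scaled totals, and log2 CPM a prior count of 2. Intervals and SEs cover the spread between libraries, and a count of 0 was read as up to 3 counts, which covers counting error only. DESeq2 1.42.0, limma 3.58.1 (trend), other scalings, filters, covariates and left-out libraries were the alternatives. Named genes were the 12 of lowest p in each direction, up to 4 members per list at an unadjusted p under 0.05, a few genes of known role, and the most variable, most abundant and most precisely measured genes, of which some are left out of the text. Hspa1a, Hba-a2, the beta-globin genes, the C1q genes, Csf1r and the untested melanocyte genes were named after their values were seen. The members and the 39 lists were chosen with earlier results of these data known. Equal replicate numbers did not mark shared animals. Upstream sequences come from RefSeq tables. The other deposited tables were not used here. Some genes, the 1 called after adjustment among them, are not reported here.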

Additional observations from a re-analysis of the deposited data

Results flagged for a closer look

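The check for 1 library far from the rest of its group was run on 156 sets of values (the genes of the text and 8 library measures, in each group), and it picked out 11 of them, or 7.05%. Chance picks out about 1 in 20. Untreated 1 was high in Ttr at 173006 CPM against 128691 to 132324 in the other untreated libraries, in the share of counts from Ttr at 16.6% against 12.8% to 13.2%, in the share of the 10 most abundant genes at 24.2% against 20.9% to 21.3%, in the share of the epithelium list at 24.4% against 20.9% to 21.4%, and in Col5a1 at 14.04 CPM against 5.58 to 6.46. The first 4 of these all contain Ttr and are not separate observations. Untreated 2 was low in Sfrp5 at 53.4 CPM against 63.0 to 64.2. IgG 5, the library of most counts, was low in Slc16a4 at 27.1 CPM against 49.9 to 57.0 and in Slc12a2 at 776.3 CPM against 873.2 to 908.6, and high in Angptl4 at 53.7 CPM against 12.6 to 22.8. IgG 1, the library of fewest counts, was high in Slc1a3 at 33.2 CPM against 4.07 to 9.24 and in Ndufc2 at 214.7 CPM against 93.0 to 110.8.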

How the results depend on the processing

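Of 1831 gene estimates under the alternatives, 1811 kept their direction and side of the threshold. Most of these genes were named for a low p in the same libraries, and none was called in the main fit. The alternatives also reuse most of those libraries, so this tally is no separate test of the estimates. The higher calls numbered 13 without the filter (with 14 lower, and 307 lower at an unadjusted p under 0.05), 2 with DESeq2, and 0 with only the 9 libraries, with the title number beside the letter, within M, within F (where the untreated arm is 1 library) and without robust estimation, and 0 to 1 over left-out libraries. The replicate block gave 2 higher calls, Npm1 among them, with 518 genes at an unadjusted p under 0.05; same-numbered libraries had deviations correlated at -0.004 to 0.071, and IgG libraries did not all correlate best with their own number, so the numbers were not taken as pairs. The cause of these changes was not tested. Scaling by library totals alone moved the median of all genes to 0.041 and gave 375 higher and 109 lower genes at an unadjusted p under 0.05, and 46 genes with every IgG library below. Leaving out a library left 134 to 194 genes above and 109 to 183 below, with fewer libraries to separate.

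List medians moved by more than the spread between libraries as follows. Without the filter, the clock median was 0.18, Fc receptors -0.21, TNF and NF-kB -0.13, leukocyte trafficking 0.18 and ribosomal proteins -0.056. With the title number, border macrophages were at -0.014. Within M, glucocorticoid was 0.30, complement 0.16, border macrophages -0.11, epithelium -0.048, pericytes 0.35 and cell cycle 0.077. Within F, glucocorticoid was -0.020, clock 0.18, immediate early genes -0.24, TNF and NF-kB -0.051, erythroid -0.42, epithelium 0.12, ependyma 0.16, pericytes -0.44, nucleolus 0.21, hypoxia -0.15, ion transport 0.11, the PD-1 axis 0.11 and oxidative phosphorylation 0.084. With the replicate block, TNF and NF-kB was -0.086, erythroid -0.38 and microglia -0.14. Over left-out libraries, medians ranged from 0.036 to 0.19 for clock, -0.22 to -0.044 for interferon-gamma, -0.061 to 0.068 for TNF and NF-kB, -0.45 to -0.12 for erythroid, -0.063 to 0.14 for border macrophages and -0.11 to 0.28 for pericytes.

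Signs turned for Per1 within M (0.079) and with the block (0.021), and over left-out libraries (-0.50 to 0.10), for Enpp2 within M (-0.071), and within F for Hspa1a (0.54), Gsn (-0.0054) and Ptpn11 (0.14). The IgG minus untreated difference in the erythroid share ranged from -0.00797 to 0.0142 percentage points and that in total counts from -40461 to 186692.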
